A study of Homo sapiens with 12 samples.

Results

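Aminoacyl-tRNA synthetases were described in LM3 cells, which were taken from lung metastases of MDA-MB-231, an established human line of triple-negative breast cancer. Members were the genes whose symbol has the form of a synthetase name: a letter for the amino acid followed by ARS, with an optional 1 or 2, together with the glutamyl-prolyl enzyme EPRS1 and the phenylalanyl subunits FARSA, FARSB and FARS2. The rule used no measured value. It found 37 of the 57730 genes in the count table, of which 20 are counted as cytosolic and 17 as mitochondrial enzymes, and all 37 passed the filter on low counts. The table lists 18 of them under older symbols without the final 1 (AARS for AARS1).

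The 12 libraries form 4 groups of 3. shControl cells carried a control hairpin and shACSL5 cells a short hairpin RNA that lowers ACSL5, an enzyme that activates long-chain fatty acids as acyl-CoA. shControl_PA and shACSL5_PA are the same cells given palmitic acid (PA), a saturated fatty acid with a long chain. The sources used here do not state the dose, time or vehicle of palmitic acid, the hairpin sequences, or whether the cells were clones or pools. Palmitic acid and a possible vehicle cannot be told apart. The labels name no other hairpin against ACSL5 and no rescue. Lower ACSL5 therefore cannot be told apart from other effects of the hairpin or from differences between the cells that carry it. Whether replicates came from separate cultures is likewise not stated, so the p-values rest on the spread among these libraries and that spread may be technical.

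Aminoacyl-tRNA synthetases join each amino acid to its tRNA and so supply the ribosome with charged tRNA. The cytosol and the mitochondrion use largely separate sets, both encoded in the nucleus, and the mitochondrial set serves the synthesis of respiratory chain subunits encoded by mitochondrial DNA. KARS1 and GARS1 each supply both compartments from the same gene, EPRS1 charges both glutamate and proline tRNA, and several cytosolic enzymes sit in a multi-synthetase complex held by the scaffolds AIMP1, AIMP2 and EEF1E1. The transcription factor ATF4, which is made when amino acids run short or proteins misfold, is known to raise many cytosolic synthetase genes through a promoter motif called the C/EBP-ATF response element (CARE).

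Library totals ran from 16788694 to 21814751 counts, and a synthetase had between 120 and 10456 counts in a library. ACSL5 fell from 143 ± 1.69 CPM (read counts scaled to library size, here after TMM scaling, which corrects for library composition) in shControl to 11.2 ± 1.16 CPM in shACSL5 (SD, n = 3). With palmitic acid ACSL5 stood at 191 ± 2.73 CPM in control and 15.3 ± 2.19 CPM in knockdown cells (SD, n = 3). The markers of this mesenchymal line were present in every library, with VIM at 2547 to 4030 CPM and CD44 at 318 to 377 CPM. The hormone receptors ESR1 and PGR stayed at or under 0.439 CPM, the immune marker PTPRC at or under 0.369 CPM and the endothelial marker CDH5 at or under 1.71 CPM, CD3E was at 0 and the fibroblast genes DCN and LUM at or under 0.114 CPM. Of the other listed markers, CD68 stood at 34.8 to 53.6 CPM, FOXA1 at 6.22 to 7.90 CPM and COL1A1 at 7.90 to 15.4 CPM.

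Promoter sequences from RefSeq (GRCh38.p14, from 250 bases before to 50 after each annotated start, 300 bases in all) were matched by symbol for 30 of the 37 members. AARS2, LARS1, VARS1, VARS2 and YARS1 were among those not matched. Both strands were searched for the CARE letters TGATGNAA, and for the E-box CACGTG, the site read by MYC, MITF-TFE and related factors. The choice of motifs was made after expression values had been seen. CARE letters were present in 7 of 16 cytosolic genes (43.8%), in 1 of 14 mitochondrial genes (7.14%, YARS2) and in 4.46% of 27305 genes in the table. At the level of single promoters, 3.62% of 35116 held them. The cytosolic matches are shown because 7 members of the same set share these letters, 5′ to 3′ along the gene in windows of 26 bases with the match in capitals.
CARS1 (chr11:3057409-3057434, minus strand): gggcggcggTTGCATCAgattctagg
MARS1 (chr12:57488055-57488080, plus strand): cggttccggTTGCATCAgcgagggat
GARS1 (chr7:30594836-30594861, plus strand): acgcggcgaTTTCATCAtgctccgag
NARS1 (chr18:57621806-57621831, minus strand): tacgctctcTGATGCAAcgccggaat
IARS1 (chr9:92293694-92293719, minus strand): ttcagcgcgTTGCATCAcctccgtgc
TARS1 (chr5:33440958-33440983, plus strand): gcctttcgaTTGCATCAgctggtcca
AARS1 (chr16:70289677-70289702, minus strand): ttctcgcagTTGCATCAgccaagtta

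The match lay within 33 bases of the annotated start in 6 of these 7 genes, and 187 bases before it in AARS1. In NARS1 the letters read along the gene, and in the other 6 on the opposite strand, where TTGCATCA or TTTCATCA appears. E-box letters were present in 3 of 14 mitochondrial genes (21.4%), in 1 of 16 cytosolic genes (6.25%, IARS1) and in 8.77% of all genes in the table (7.26% of promoters). The mitochondrial matches are shown because the results on the knockdown return to these 3 genes.
CARS2 (chr13:110706502-110706527, minus strand): tgggatgcaCACGTGcttcgctaaca
MARS2 (chr2:197705349-197705374, plus strand): cgcctctcaCACGTGctgtcagaacg
EARS2 (chr16:23557349-23557374, minus strand): ggagaagccCACGTGtgctattccat

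A match is a description of letters and does not show that a factor was bound.

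Cytosolic synthetase transcripts were more abundant than mitochondrial ones in these cells. In shControl, the level per kb of annotated exon ran from 9.12 CPM per kb for CARS1 to 121 CPM per kb for SARS1 among the cytosolic enzymes, with a median of 40.5. Among the mitochondrial enzymes it ran from 2.64 CPM per kb for FARS2 to 51.2 CPM per kb for IARS2, with a median of 7.28. The ranges overlapped, since IARS2 stood above the cytosolic median. The length is the union of all annotated exons, so the order of members depends on the annotation. CARS1, with 10.0 kb, stood at 91.5 CPM in shControl, above FARSB (55.5 CPM) and WARS1 (86.1 CPM). Summed over the 20 cytosolic members, the level was 4614 ± 52.1 CPM in shControl, 4698 ± 21.0 in shACSL5, 5052 ± 39.4 in shControl_PA and 4873 ± 56.3 in shACSL5_PA (SD, n = 3). Summed over the 17 mitochondrial members it was 692 ± 14.9, 770 ± 4.35, 708 ± 3.34 and 759 ± 10.4 CPM in the same order (SD, n = 3). The cytosolic sum was highest in palmitate-treated control cells, whereas the mitochondrial sum was higher in both knockdown groups than in both control groups, with no overlap between libraries. In bulk RNA, fewer cells of a kind and less RNA per cell cannot be told apart.

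**Figure D1:**
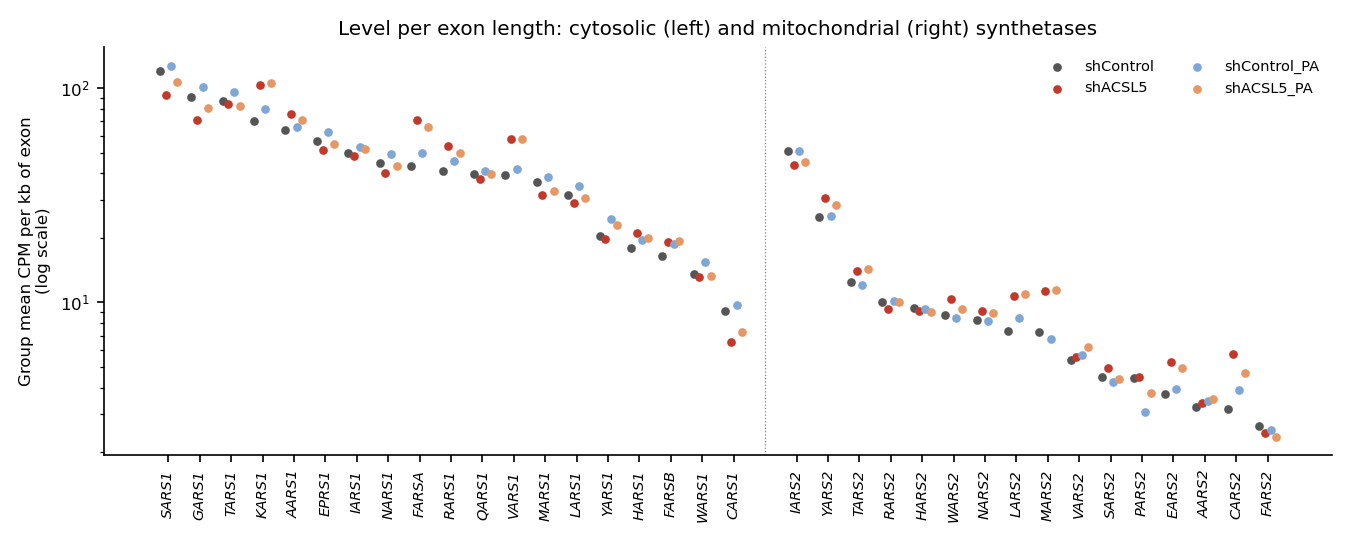
Group mean level of the synthetases reported by name, in CPM per kb of annotated exon (log axis), cytosolic enzymes on the left and mitochondrial enzymes on the right, ordered by the shControl level, with 1 point per group. In shControl, cytosolic members ran from 9.12 (CARS1) to 121 (SARS1) and mitochondrial members from 2.64 (FARS2) to 51.2 (IARS2).

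With the ACSL5 knockdown the cytosolic set split and part of the mitochondrial set was higher. Without palmitic acid, 7 of 20 cytosolic members were higher in shACSL5, 7 were lower and 6 did not pass the test. Of the 17 mitochondrial members, 8 were higher, 1 was lower and 8 did not pass. Across all 14706 genes tested, 29.7% were called higher and 32.6% lower, so a count of 7 of 20 in either direction is near the background and the mitochondrial split leaned to higher. The median log2 change was −0.05 for the cytosolic and 0.14 for the mitochondrial members, beside −0.02 for all genes tested. With library totals in place of TMM scaling the cytosolic split was 7 higher and 11 lower. Of all genes, 28% were then called higher and 34.6% lower.

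**Figure D2:**
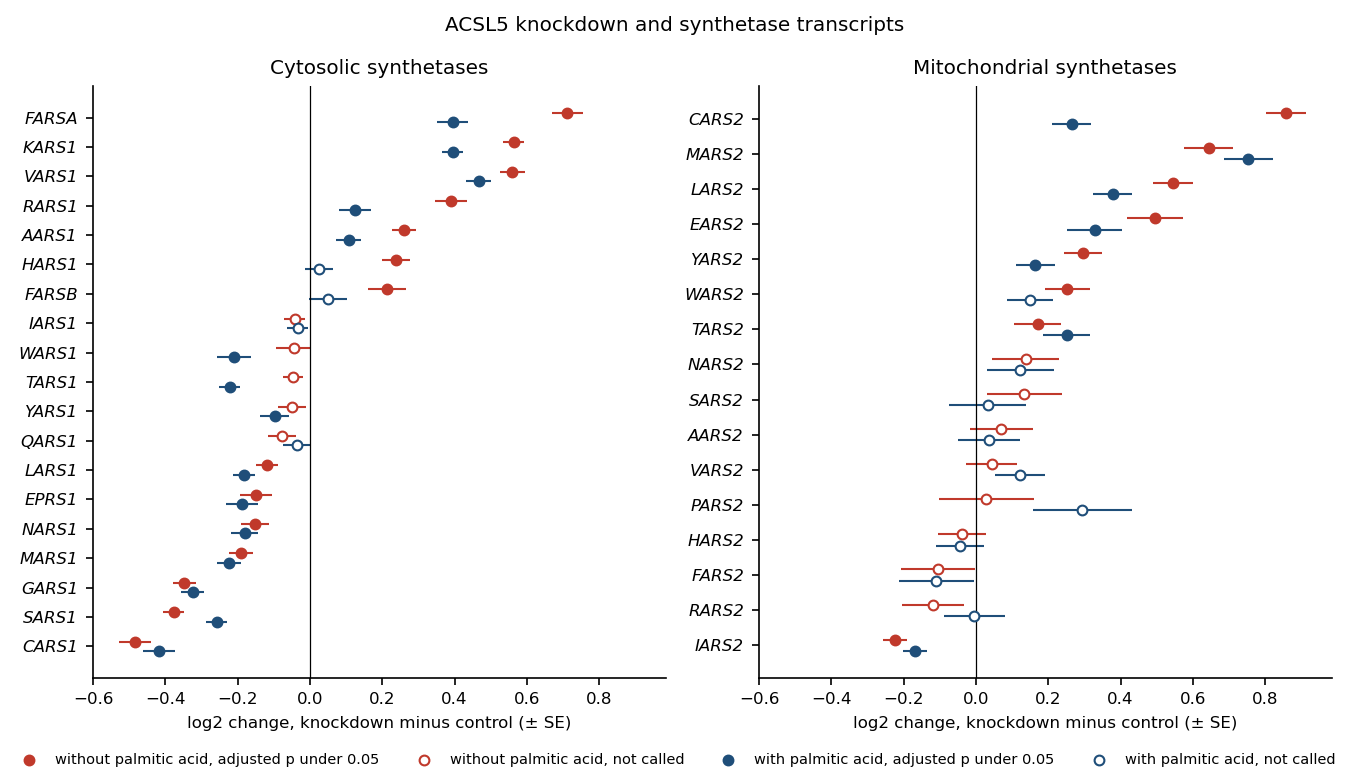
Log2 change with the knockdown for the synthetases reported by name (± SE from the edgeR test, n = 3 libraries per group), without palmitic acid (red) and with it (blue), with filled points for adjusted p under 0.05. Without palmitic acid CARS2 was the highest (0.86), and with it MARS2 (0.75), where CARS2 stood at 0.26. CARS1 was the lowest in both, at −0.48 and −0.42.

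Among the cytosolic enzymes the knockdown raised most the phenylalanyl subunit FARSA, the lysyl enzyme KARS1 and the valyl enzyme VARS1. FARSA (ENSG00000179115, GRCh38 chromosome 19, 12922479 to 12934037, minus strand) stood at 104, 109 and 104 CPM in shControl and at 176, 168 and 175 CPM in shACSL5. Its log2 change was 0.71 ± 0.04 (SE, adjusted p = 1.7e-12), and the lowest knockdown library lay above the highest control library. The other subunit of the same enzyme, FARSB, changed by 0.21 ± 0.05 (adjusted p = 0.00122).

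KARS1 (ENSG00000065427, chromosome 16, 75627474 to 75648643, minus strand), which charges lysine tRNA in both compartments, stood at 278, 292 and 283 CPM in shControl and at 422, 415 and 425 CPM in shACSL5. It rose by 0.56 ± 0.03 on the log2 scale (adjusted p = 1.5e-13). VARS1 (ENSG00000204394, chromosome 6, 31777518 to 31795953, minus strand) stood at 228, 242 and 247 CPM in shControl and at 359, 343 and 355 CPM in shACSL5, a log2 change of 0.56 ± 0.04 (adjusted p = 3.7e-12). For both genes the libraries of the groups did not overlap. Smaller rises were called for the arginyl enzyme RARS1 (0.39 ± 0.04), the alanyl enzyme AARS1 (0.26 ± 0.03) and the histidyl enzyme HARS1 (0.24 ± 0.04).

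The cytosolic enzymes that fell most were those for cysteine, serine and glycine. CARS1 (ENSG00000110619, chromosome 11, 3000922 to 3057613, minus strand) stood at 90.01, 93.0 and 91.5 CPM in shControl and at 64.8, 64.6 and 66.8 CPM in shACSL5. It fell by 0.48 on the log2 scale (SE 0.04, adjusted p = 2.3e-09). SARS1 fell by 0.38 (SE 0.03) and GARS1 by 0.35 (SE 0.03), again with no overlap between the groups' libraries. The methionyl (MARS1, −0.19), asparaginyl (NARS1, −0.15), glutamyl-prolyl (EPRS1, −0.15) and leucyl (LARS1, −0.12) enzymes were called lower by smaller amounts. Among the 6 uncalled cytosolic members, IARS1, QARS1, TARS1, WARS1 and YARS1 had log2 changes from −0.08 (QARS1) to −0.04 (IARS1). EPRS1 was no longer called without shACSL5 replicate 3 (adjusted p = 0.0564).

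Of the 8 synthetases of the multi-synthetase complex, KARS1 and RARS1 rose, EPRS1, LARS1 and MARS1 fell, and IARS1 and QARS1 were among those that did not pass the test. These counts are near the background of 29.7% higher and 32.6% lower. Of the 3 scaffold genes, 2 were called higher: AIMP2 by 0.57 ± 0.07 and EEF1E1 by 0.28 ± 0.06, while AIMP1 had a log2 change of 0.02 ± 0.07.

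The mitochondrial cysteinyl enzyme CARS2 showed the highest rise of the 37 members. CARS2 (ENSG00000134905, chromosome 13, 110641412 to 110713603, minus strand) stood at 33.3, 31.6 and 35.0 CPM in shControl and at 59.7, 61.8 and 59.6 CPM in shACSL5. This is a log2 change of 0.86 ± 0.06 (adjusted p = 5.2e-12), with the groups far apart. The annotation places 3.12% of its exon bases under ING1 on the opposite strand, so a small part of its reads could belong to that gene.

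MARS2, the mitochondrial methionyl enzyme (ENSG00000247626, chromosome 2, 197705369 to 197708387, plus strand), stood at 23.1, 21.1 and 21.7 CPM in shControl and at 35.0, 33.6 and 34.2 CPM in shACSL5. It rose by 0.64 ± 0.07 (adjusted p = 2.0e-08). LARS2, the leucyl enzyme (ENSG00000011376, chromosome 3, 45388506 to 45549421, plus strand), stood at 48.6, 47.7 and 53.6 CPM in shControl and at 74.2, 70.3 and 74.1 CPM in shACSL5, a log2 change of 0.55 ± 0.05 (adjusted p = 8.9e-09). Neither gene had overlapping libraries. The glutamyl (EARS2, 0.50 ± 0.08), tyrosyl (YARS2, 0.30 ± 0.05), tryptophanyl (WARS2, 0.25 ± 0.06) and threonyl (TARS2, 0.17 ± 0.07) enzymes were called higher as well.

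IARS2, the most abundant mitochondrial member per kb, was called lower, by 0.22 on the log2 scale (SE 0.03, adjusted p = 3.1e-06). The 8 uncalled mitochondrial members had log2 changes from −0.12 (RARS2) to 0.14 (NARS2). TARS2 was the least secure call: it did not pass without shControl replicate 1 or 3 or without shACSL5 replicate 1 or 3 (adjusted p from 0.0611 to 0.174), nor with library totals (0.0571). Without shControl replicate 2, RARS2 was called lower as well (−0.23, adjusted p = 0.0221). SARS2 shares 46.2% of its exon bases with another gene on the same strand and VARS2 21.99% with GTF2H4, so the levels of both are uncertain.

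For the same amino acid, cytosolic and mitochondrial enzymes could move in opposite directions. Both enzymes were set side by side for 16 amino acids, a pairing drawn up after the values had been seen. EPRS1 was set beside EARS2 only, so proline, with PARS2 as its mitochondrial enzyme, was left out. In 4 pairs the cytosolic gene was called lower and the mitochondrial gene higher in shACSL5: CARS1 and CARS2, LARS1 and LARS2, MARS1 and MARS2, and EPRS1 and EARS2, the last without a call for EPRS1 when shACSL5 replicate 3 was left out (adjusted p = 0.0564). No pair showed the reverse, and in no pair were both genes called in the same direction. IARS2 was the only mitochondrial member called lower and IARS1 was not called, so the single calls left no room for a reverse pair. In the remaining 12 pairs, 7 had a call in the cytosolic gene only and 5 in the mitochondrial gene only. Taken singly, 7 of 20 cytosolic members were called lower and 8 of 17 mitochondrial members higher. The shares of all genes were 32.6% lower and 29.7% higher. Pairs of this kind can arise from such counts alone, and whether 4 exceeds that was not tested.

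**Figure D3:**
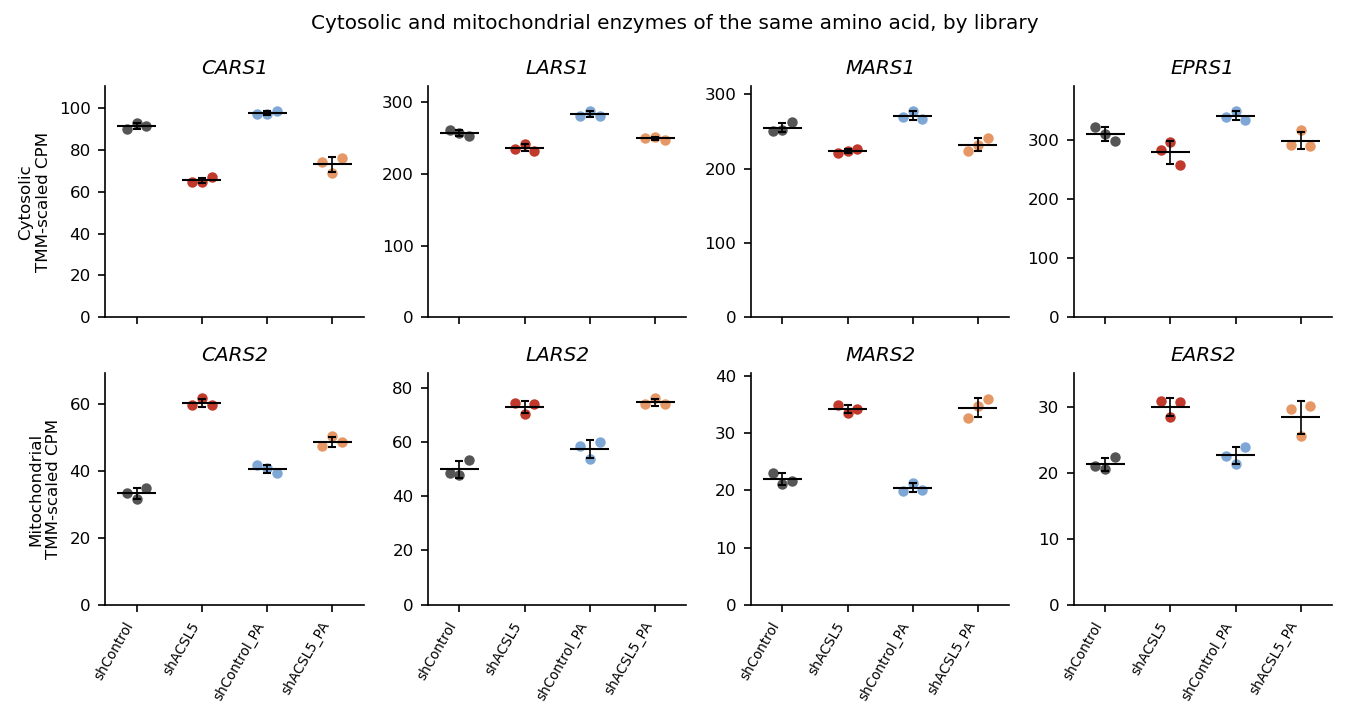
TMM-scaled CPM in each library for the 4 amino acids whose cytosolic enzyme (top) was called lower and mitochondrial enzyme (bottom) higher with the knockdown, with group mean and SD (n = 3). CARS1 fell from 90.01 to 93.0 CPM in shControl to 64.6 to 66.8 CPM in shACSL5, whereas CARS2 rose from 31.6 to 35.0 CPM to 59.6 to 61.8 CPM.

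The promoter letters shown above can be read beside these calls, as a description without a test. Of the 7 cytosolic genes with CARE letters, CARS1, GARS1, MARS1 and NARS1 were called lower, AARS1 was called higher, and IARS1 and TARS1 did not pass. Of the 9 matched cytosolic genes without them, 5 were called higher, 2 lower and 2 did not pass. The 3 mitochondrial genes with E-box letters, CARS2, MARS2 and EARS2, were all called higher, beside 4 higher, 1 lower and 6 not passing among the 11 matched mitochondrial genes without them. IARS1, the cytosolic gene with E-box letters, did not pass, and YARS2, the mitochondrial gene with CARE letters, was called higher. Of all genes tested, 29.7% were called higher and 32.6% lower.

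Lists of genes that act around the synthetases are to be read beside the 29.7% of all genes called higher and the 32.6% called lower with the knockdown. Of 17 genes of the ATF4 branch and amino acid synthesis, 6 were called higher and 10 lower. Those with the smallest p were the asparagine synthetase gene ASNS (−1.10 ± 0.04), ALDH18A1, a proline synthesis gene (0.95 ± 0.04), the stress gene DDIT4 (−1.36 ± 0.06) and the lipoprotein receptor VLDLR (−1.26 ± 0.08), so the list did not move one way. Of 10 amino acid transporters 4 rose and 4 fell, near those shares, led by SLC1A4 (−1.99 ± 0.11) and the cationic amino acid carrier SLC7A1 (0.52 ± 0.04).

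Downstream of charging, 5 of 6 cytosolic elongation factors rose, among them EEF1G (0.45 ± 0.02) and EEF2 (0.47 ± 0.03), and EEF1A2 fell by 0.84 on the log2 scale (SE 0.04). Of 7 mitochondrial partners, which make or use charged mitochondrial tRNA, 5 rose and 2 did not pass. The amidotransferase subunit GATC rose by 0.82 ± 0.06 and the mitochondrial elongation factor TUFM by 0.53 ± 0.03. Of 5 sensors of uncharged tRNA and eIF2 alpha kinases, 4 rose, led by GCN1 (0.39 ± 0.03) and EIF2AK4, the kinase that GCN1 activates (0.28 ± 0.04). Of 9 genes of tRNA maturation, export and editing, 4 rose and 2 fell, also near the shares of all genes.

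In control cells palmitic acid raised the cytosolic set by small amounts. In shControl_PA, 16 of 20 cytosolic members were higher than in shControl, none was lower and 4 did not pass, where 15.1% of all genes tested were called higher and 13.5% lower. The median log2 change of the cytosolic members was 0.14, beside −0.00 for all genes tested. None was called lower by DESeq2 either, and none had an unadjusted p under 0.05 in that direction in edgeR. Of the 17 mitochondrial members, 3 were higher, 1 was lower and 13 did not pass, with a median of −0.01.

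The scaling bears on this count. With library totals in place of TMM scaling, 8 cytosolic members were called higher and none lower, while 10.3% of all genes were called higher and 18.4% lower. Among those that kept their call were FARSA, GARS1, KARS1, LARS1, TARS1, WARS1 and YARS1.

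The tyrosyl enzyme YARS1 rose most among the cytosolic members, by 0.26 ± 0.04 (adjusted p = 2.5e-05). FARSA (0.20 ± 0.04) and KARS1 (0.20 ± 0.03) were also among the highest. The other called members named here lay between 0.08 (SARS1) and 0.19 (WARS1). In the multi-synthetase complex 7 of 8 synthetases were called higher, and QARS1 had a log2 change of 0.04 ± 0.04. Outside the complex 9 of 12 cytosolic synthetases were called higher, with a median of 0.14 in both sets. The share of all genes tested was 15.1%. The uncalled members AARS1, CARS1, QARS1 and VARS1 had changes from 0.04 to 0.09. VARS1 missed the threshold narrowly in edgeR (adjusted p = 0.0537). It was called higher by DESeq2 (0.0251), with DESeq2 size factors (0.0378), without the filter on low counts (0.0401) and with only the groups compared (0.0483). The same held in 4 of the 12 fits without a library.

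Single libraries decided 7 of the 16 cytosolic calls. HARS1 was not called without shControl replicate 2 (adjusted p = 0.0584), FARSB without shControl_PA replicate 3 (0.111), and IARS1 without shControl replicate 2 or shControl_PA replicate 1 (0.0581 and 0.0683). RARS1 was lost without shControl replicate 1 or shControl_PA replicate 1 or 2 (0.0639 to 0.0667), and EPRS1 without shControl replicate 2 or 3 or shControl_PA replicate 2 (0.055 to 0.106). SARS1 was lost without any shControl replicate, shACSL5 replicate 1 or shControl_PA replicate 1 or 3 (0.0514 to 0.176). MARS1, at an adjusted p of 0.0497, was lost without any of 8 libraries (0.0503 to 0.182): shControl 1 and 2, shACSL5 1 and 2, shControl_PA 1, 2 and 3, and shACSL5_PA 2. Without the filter on low counts neither SARS1 (0.0621) nor MARS1 (0.0611) was called. MARS1 shares 5.05% of its exon bases with DDIT3 on the opposite strand, a stress gene that rose by 1.07 ± 0.14 in the same comparison but stayed at or under 18.6 CPM.

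Among the mitochondrial members CARS2 (0.29 ± 0.06) and LARS2 (0.20 ± 0.06) were called higher. LARS2 stood at 58.6, 53.7 and 60.2 CPM in shControl_PA, just above its shControl range of 47.7 to 53.6 CPM, and was not called without shControl replicate 2 (adjusted p = 0.0536) or shControl_PA replicate 3 (0.0516). The prolyl enzyme PARS2 (ENSG00000162396, chromosome 1, 54756898 to 54764514, minus strand) went the other way. It stood at 11.3, 10.2 and 9.68 CPM in shControl and at 6.56, 7.70 and 7.47 CPM in shControl_PA. It fell by 0.52 on the log2 scale (SE 0.14, adjusted p = 0.00631), with no overlap, at a level among the lowest of the 37 members.

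**Figure D4:**
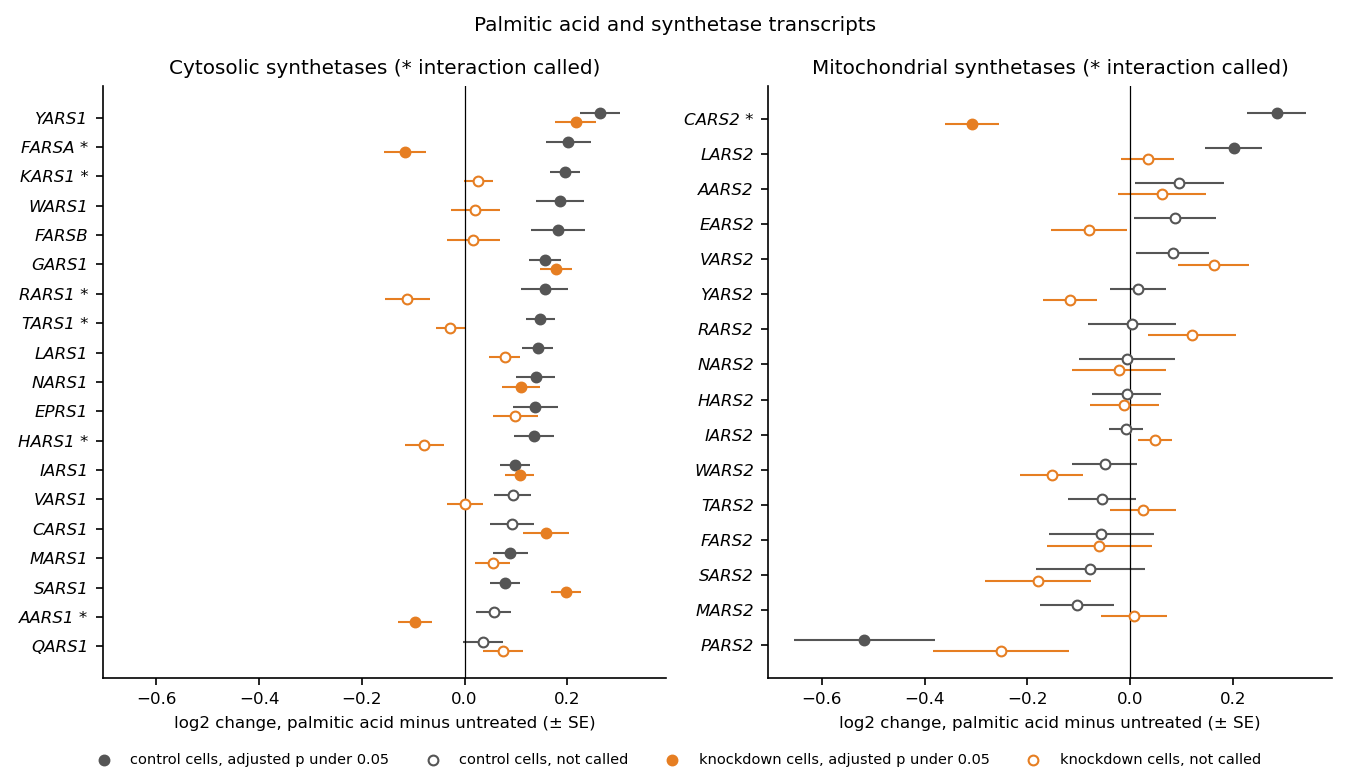
Log2 change with palmitic acid for the synthetases reported by name (± SE from the edgeR test, n = 3 libraries per group), in control cells (grey) and knockdown cells (orange), with filled points for adjusted p under 0.05 and a star where the interaction was called. In control cells the cytosolic points lie from 0.04 (QARS1) to 0.26 (YARS1), and CARS2 lies at 0.29 in control and −0.31 in knockdown cells.

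Beside the 15.1% of all genes called higher and 13.5% called lower with palmitic acid in control cells, the lists of genes around the synthetases gave the following counts. Of the 17 genes of the ATF4 branch and amino acid synthesis 12 rose and 5 did not pass, and of the 10 amino acid transporters 7 rose and 3 did not pass, led by SLC3A2 (0.68 ± 0.03). Of the 6 cytosolic elongation factors 5 rose and 1 fell. Of the 7 mitochondrial partners 1 rose, of the 9 genes of tRNA maturation, export and editing 1 rose and 1 fell, and of the 5 sensors and kinases 1 fell. In knockdown cells, where 12.1% of all genes were called higher and 9.78% lower, 10 of the 17 genes of the ATF4 branch and amino acid synthesis rose and 2 fell, and 3 of the 10 transporters rose and 1 fell. Of the 6 elongation factors 1 rose and 3 fell, of the 7 mitochondrial partners 1 rose and 1 fell, of the 9 tRNA maturation genes 1 rose and 2 fell, and of the 5 sensors and kinases 2 fell.

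In knockdown cells palmitic acid changed fewer members. In shACSL5_PA, 7 cytosolic members were higher than in shACSL5, 2 were lower and 11 did not pass, where 12.1% of all genes tested were called higher and 9.78% lower. The median log2 change was 0.07 for the cytosolic members, −0.02 for the mitochondrial members and 0.01 for all genes tested. Those that rose included YARS1 (0.22 ± 0.04), SARS1 (0.20 ± 0.03), GARS1 (0.18 ± 0.03), CARS1 (0.16 ± 0.05), NARS1 (0.11 ± 0.04) and IARS1 (0.11 ± 0.03). AARS1 (−0.10 ± 0.03) and FARSA (−0.12 ± 0.04) were called lower. With library totals the cytosolic split was 6 higher and 3 lower, where 9.89% of all genes were called higher and 11.6% lower.

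The mitochondrial set gave 1 call, CARS2, which fell by 0.31 on the log2 scale (SE 0.05, adjusted p = 0.00019). The other 16 did not pass, from −0.25 (PARS2) to 0.16 (VARS2). None was called higher by edgeR, with 1 at an unadjusted p under 0.05, and none by DESeq2. Without shACSL5_PA replicate 2, in which PARS2 stood at 10.8 CPM against 7.40 and 8.44 in the other replicates, PARS2 was called lower too (−0.42, adjusted p = 0.0363).

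Of the 9 cytosolic calls, GARS1, IARS1, SARS1 and YARS1 held when any single library was left out. CARS1 was lost without shACSL5 replicate 1 or shACSL5_PA replicate 1 or 3 (adjusted p from 0.0515 to 0.0622). NARS1 was lost without shACSL5 replicate 1 or 3 or shACSL5_PA replicate 1 or 2 (0.0648 to 0.153). AARS1 was lost without shACSL5 replicate 1 or 3, shControl_PA replicate 1 or 2 or any shACSL5_PA replicate (0.0525 to 0.17). FARSA was lost in 10 of the 12 fits, all but those without shACSL5 replicate 2 or shACSL5_PA replicate 3 (0.0562 to 0.268). Without the filter on low counts neither AARS1 nor FARSA was called. With only the groups compared in the fit, CARS1 (0.0504), FARSA (0.0627) and NARS1 (0.0903) were not called, and with library totals NARS1 was not called (0.0994).

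Beside the CARE letters, 4 of the 7 cytosolic genes that hold them were called higher in this comparison, 1 lower and 2 did not pass, and of the 9 matched genes without them 1 was called higher, 1 lower and 7 did not pass. In control cells the same counts were 5 of 7 and 8 of 9 called higher, with none lower. YARS2, the mitochondrial gene with CARE letters, did not pass in either comparison. Of all genes tested, 12.1% were called higher and 9.78% lower in knockdown cells, and 15.1% and 13.5% in control cells.

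Under palmitic acid the knockdown lowered more cytosolic members than it raised. Comparing shACSL5_PA with shControl_PA, 5 cytosolic members were higher, 11 were lower and 4 did not pass, where 24.4% of all genes tested were called higher and 26.1% lower. The median was −0.12 for the cytosolic and 0.12 for the mitochondrial members, beside −0.00 for all genes tested. VARS1 (0.47 ± 0.04), KARS1 (0.39 ± 0.03) and FARSA (0.39 ± 0.04) were highest, with RARS1 (0.12 ± 0.04) and AARS1 (0.11 ± 0.03) also called. CARS1 (−0.42 ± 0.04), GARS1 (−0.33 ± 0.03), SARS1 (−0.26 ± 0.03), MARS1 (−0.22 ± 0.03) and TARS1 (−0.22 ± 0.03) were lowest.

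Of the mitochondrial members, 6 were higher, 1 was lower and 10 did not pass. MARS2 rose most, by 0.75 ± 0.07 (adjusted p = 4.0e-09), and its libraries stood at 19.9, 21.4 and 20.1 CPM in shControl_PA and at 32.7, 34.9 and 36.0 CPM in shACSL5_PA. LARS2 (0.38 ± 0.05), EARS2 (0.33 ± 0.08), CARS2 (0.26 ± 0.05), TARS2 (0.25 ± 0.07) and YARS2 (0.16 ± 0.05) were also called higher, and IARS2 fell by 0.17 (SE 0.03). Of the 16 amino acids, 6 now had a cytosolic enzyme called lower and a mitochondrial enzyme called higher. They were cysteine, glutamate, leucine, methionine, threonine and tyrosine. None showed the reverse, which the single calls left no room for, since only IARS2 was called lower among mitochondrial members and IARS1 was not called. With 11 of 20 cytosolic members called lower and 6 of 17 mitochondrial members higher, such pairs can arise from these counts alone, which was not tested.

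Calls near the threshold again rested on single libraries. AARS1 was lost without shControl_PA replicate 3 (adjusted p = 0.0674), and RARS1 without that library (0.196) or shACSL5_PA replicate 2 (0.0688) or 3 (0.0523). The cytosolic count called higher thus went from 5 to 3 without shControl_PA replicate 3, where 22.3% of all genes were called higher. YARS2 was lost without shControl_PA replicate 1 (0.0708) or shACSL5_PA replicate 2 (0.0608). YARS1 was lost without shControl replicate 2, shACSL5 replicate 1, or replicate 1 or 2 of either treated group (0.0502 to 0.219). YARS1 was also not called by DESeq2 (0.0592), with DESeq2 size factors (0.0642), without the filter on low counts (0.0511) or with only the groups compared (0.0691), and the tyrosine pair rests on this call.

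The response to palmitic acid itself differed between knockdown and control cells for 8 members. The interaction, the log2 response of the knockdown less that of the control cells, was called lower for 6 of 20 cytosolic and 2 of 17 mitochondrial members and higher for none, where 7.15% of all genes tested were called higher and 7.39% lower. By edgeR 1 cytosolic member, SARS1 (0.12 ± 0.04), was higher at an unadjusted p under 0.05, and DESeq2 called it (adjusted p = 0.0484). No mitochondrial member was higher by either measure. The median was −0.06 for the cytosolic, −0.02 for the mitochondrial members and 0.01 for all genes tested. The same number is the knockdown difference with palmitic acid minus that without it.

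CARS2 had the strongest difference, −0.59 ± 0.08 (adjusted p = 1.8e-05). Its level rose with palmitic acid from 31.6 to 35.0 CPM in shControl to 41.6, 40.8 and 39.3 CPM in shControl_PA, and fell from 59.6 to 61.8 CPM in shACSL5 to 47.3, 50.3 and 48.6 CPM in shACSL5_PA. The 4 groups did not overlap, and the treated groups lay between the untreated ones. FARSA differed by −0.32 ± 0.06 (adjusted p = 0.00102): its libraries moved to 119.5, 125 and 120.0 CPM in shControl_PA and to 158, 151 and 170.3 CPM in shACSL5_PA, where 1 library stayed within the shACSL5 range of 168 to 176 CPM.

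TARS1, the threonyl enzyme, differed by −0.18 ± 0.04 (adjusted p = 0.00451). It stood at 492, 497 and 502 CPM in shControl and 554, 546 and 553 CPM in shControl_PA, and at 479, 499.7 and 465 CPM in shACSL5 and 474, 478 and 465 CPM in shACSL5_PA. The rise was thus seen in control cells, while the knockdown groups overlapped.

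RARS1 differed by −0.27 ± 0.06 (adjusted p = 0.00561), with 135, 141 and 146 CPM in shControl, 162, 163 and 146 in shControl_PA, 183, 194 and 177 in shACSL5 and 169, 172 and 171 in shACSL5_PA. The third shControl_PA library lay within the shControl range. HARS1 differed by −0.21 ± 0.05 (adjusted p = 0.00968), with 140.3, 137 and 144 CPM in shControl, 152, 154 and 156 in shControl_PA, 167, 158 and 172 in shACSL5 and 158, 152 and 160.1 in shACSL5_PA. HARS1 and HARS2 lie head to head on opposite strands and share 437 exon bases (5.56% of HARS1), and HARS2 showed an interaction of −0.00 ± 0.09.

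KARS1 differed by −0.17 ± 0.04 (adjusted p = 0.00757). It moved to 329, 322 and 327 CPM in shControl_PA, above every shControl library, and to 418, 435 and 433 CPM in shACSL5_PA, overlapping the shACSL5 libraries. AARS1 was called as well (−0.15 ± 0.05, adjusted p = 0.031).

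AARS1 stood at 282, 278 and 298 CPM in shControl, 302, 303 and 288 in shControl_PA, 350.4, 332 and 345 in shACSL5 and 318, 319.7 and 324 in shACSL5_PA. It was not called without replicate 1 or 2 of shControl, shControl_PA or shACSL5_PA, or without shACSL5 replicate 1 or 3 (0.0574 to 0.0951), nor with library totals (−0.13, adjusted p = 0.0674). In AARS1 the control groups overlapped and the knockdown groups did not.

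**Figure D5:**
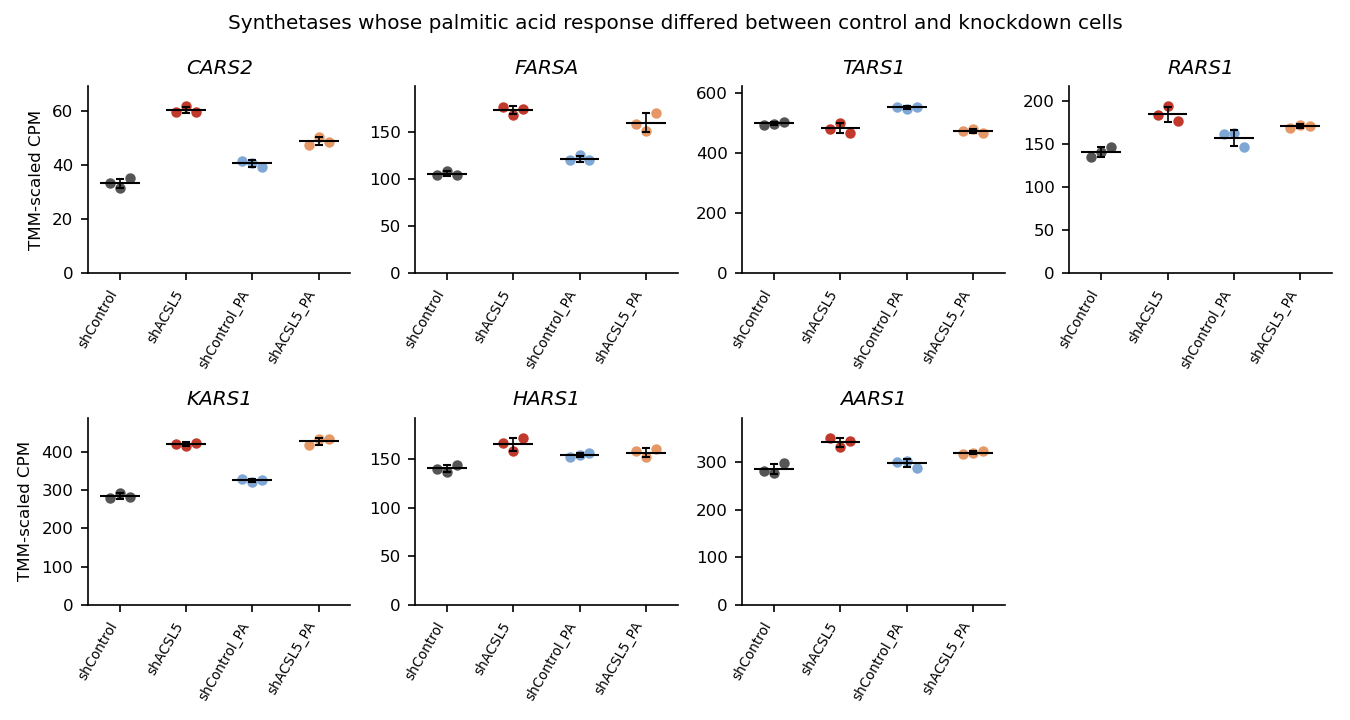
TMM-scaled CPM in each library for 7 of the 8 synthetases whose palmitic acid response differed between knockdown and control cells, with group mean and SD (n = 3). In CARS2 the shControl_PA libraries (39.3 to 41.6 CPM) lie above shControl (31.6 to 35.0 CPM), whereas the shACSL5_PA libraries (47.3 to 50.3 CPM) lie below shACSL5 (59.6 to 61.8 CPM).

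Of the members whose level changed by at least 0.5 in a pairwise comparison, VARS1 and LARS2 did not pass the interaction test (−0.09 ± 0.05 and −0.17 ± 0.08), nor did MARS2 (0.11 ± 0.10) or PARS2 (0.27 ± 0.19). VARS1 stood at 257, 260.0 and 248 CPM in shControl_PA and at 349, 343 and 366 CPM in shACSL5_PA, and LARS2 stood at 73.9, 76.2 and 74.0 CPM in shACSL5_PA. PARS2 stood at 11.5, 9.65 and 10.4 CPM in shACSL5 and at 7.40, 10.8 and 8.44 CPM in shACSL5_PA, which overlapped. Among the genes around the synthetases, 4 of 6 cytosolic elongation factors were called lower in the interaction, led by EEF1A1 (−0.24 ± 0.02), EEF1G (−0.27 ± 0.03) and EEF2 (−0.29 ± 0.04). Of all genes tested, 7.39% were called lower and 7.15% higher. The ATF4 branch and amino acid synthesis list was mixed, with 3 of 17 higher and 5 lower. Lower calls were given to 3 of 10 transporters, 1 of 7 mitochondrial partners, 1 of 5 sensors and kinases and 1 of 3 scaffold genes. None of the 9 genes of tRNA maturation, export and editing was called.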

How the data were processed

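Polyadenylated RNA was sequenced in 12 libraries, 3 in each of 4 groups taken from the sample labels. The authors deposited unnormalized counts of reads for each gene. Per the submitters' processing notes, the tools were HISAT2 2.1.0, fastp 0.22.0 and featureCounts, whose version is not stated, with GRCh38. Neither the gene annotation used in counting nor its strand setting is stated, so a member and a gene that overlaps it on the other strand may share reads.

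Genes were filtered with filterByExpr, which left 14706, scaled with TMM factors, and fitted with edgeR 4.0.16 (R 4.3.3) in 1 quasi-likelihood model over all 12 libraries, tested on simulated data beforehand. The common dispersion was 0.00203. Adjusted p-values are Benjamini-Hochberg over all genes tested, and a gene was called under 0.05. All 5 contrasts come from this model and share groups, so they are not independent. The SE is the absolute log2 change divided by the square root of F. Alternatives were DESeq2 1.42.0 and its size factors, library totals, no filter, only the groups compared, a replicate block and leaving out each library. Coordinates and exon lengths are from GENCODE on GRCh38. Pseudogene copies named after members held at most 1 count in all.

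Counts, sums and medians cover all 37 members, of which a few are not reported here individually. The members and the lists of related genes were chosen with earlier results of these data known. Values are given in every library for members called with a log2 change of at least 0.5 in a pairwise comparison or called in the interaction. Values in every library of CARS1, the same-amino-acid pairs and the motifs were chosen after values were seen. From each related list at most 4 called genes with the smallest p are named, except DDIT3, named for its overlap with MARS1.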

Additional observations from a re-analysis of the deposited data

Results flagged for a closer look

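A test of the difference between knockdown and control cells in their response to palmitic acid was passed by 8 synthetases, all with a lower response in knockdown cells (log2, edgeR's quasi-likelihood test). The values reported here were −0.59 for CARS2, −0.32 for FARSA, −0.27 for RARS1, −0.21 for HARS1, −0.18 for TARS1, −0.17 for KARS1 and −0.15 for AARS1. CARS2 was called in both directions, higher with palmitic acid in control cells (0.29) and lower in knockdown cells (−0.31). FARSA was also called in both directions (0.20 and −0.12), the fall at an adjusted p of 0.0496.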

How the results depend on the processing

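No call of a synthetase changed direction under any alternative. Counts of called members moved by over 1.5 times as follows. With library totals, 11 cytosolic members were lower with the knockdown (7 with TMM), beside 34.6% of all genes. With palmitic acid in control cells 8 cytosolic members were higher (16), beside 10.3% of all genes. With palmitic acid in knockdown cells 2 mitochondrial members were lower (1), beside 11.6% of all genes. In the interaction 1 cytosolic member was higher (0), beside 9.06% of all genes. With TMM these shares of all genes were 32.6%, 15.1%, 9.78% and 7.15%. Without the filter, palmitic acid in knockdown cells lowered 0 cytosolic members (2) and raised 1 mitochondrial member (0). Of all genes in that fit, 5.22% were lower and 7.7% higher. DESeq2 called 1 cytosolic member higher in the interaction, beside 6.29% of all genes. With each library left out in turn, 1 to 2 mitochondrial members were lower with the knockdown, beside 30% to 32.5% of all genes. With the knockdown under palmitic acid 3 to 5 cytosolic members were higher, beside 21.7% to 24.1% of all genes. With palmitic acid in knockdown cells 4 to 9 cytosolic members were higher, beside 8.69% to 12% of all genes. In that comparison 0 to 2 cytosolic and 1 to 2 mitochondrial members were lower, beside 7.31% to 9.47% of all genes. In the interaction 0 to 1 cytosolic members were higher, beside 5.25% to 6.84% of all genes. There 1 to 2 mitochondrial members were lower, beside 5.79% to 7.42% of all genes. The count of cytosolic members higher with palmitic acid in control cells (16) ran from 11 to 17 in these fits, a move within 1.5 times. The share of all genes called higher there ran from 12.2% to 15.3%. The cause of these moves was not tested.

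Replicate numbers did not pair the libraries: over 18 pairs of libraries with the same number, the correlation of deviations from the group means ran from −0.133 to 0.19, and over other pairs from −0.185 to 0.258. With the replicate block, 1 mitochondrial member was called higher with palmitic acid in knockdown cells and 1 cytosolic member higher in the interaction. The shares of all genes called higher were then 12.8% and 7.58%. PARS2 was the member with the widest SE (0.14 with palmitic acid in control cells). Its level was low and its shACSL5_PA libraries were spread, and which of these widened the SE was not tested.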
